A study of Rattus norvegicus with 12 samples.

Results

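Gene expression in rat dorsal root ganglia 6 h after sciatic nerve resection was compared with that 0.5 h after it, on 6 of the 12 arrays of the series, 3 for each time. The arrays were taken by their time label, and 21479 genes were compared. Male Sprague-Dawley rats of 180 to 220 g lost 1 cm of the left sciatic nerve at mid-thigh under injected anaesthesia. Ganglia were taken at 0.5, 3, 6 or 9 h from 24 rats, 6 for each time. All groups share the operation and the anaesthetic and none was uninjured, so every difference below is between 2 times after the same injury and not from rest. The labels give neither the spinal level of the ganglia nor which rats' RNA went onto which array, so p-values measure only the spread between these arrays, which may be technical. A level below is the log2 processed signal of a probe minus the 75th percentile of its array. Levels of different genes come from different probes and are not compared with each other.

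A dorsal root ganglion holds the cell bodies of sensory neurons, each wrapped in satellite glia, beside axons with their Schwann cells, vessels, connective tissue and resident macrophages. Cutting the axon sends a burst of action potentials and calcium into the cell body, which switches on immediate early genes through kinases acting on factors already present. Several of these genes encode brakes, such as phosphatases that inactivate the kinases or inhibitors that hold NF-kappaB in the cytoplasm, and their short-lived transcripts are lost once the stimulus ends. A slower program, led by transcription factors such as Atf3, Jun and Sox11, starts as injury signals are carried along the axon by motor proteins. Surgery and anaesthesia also release adrenal glucocorticoids, which act on many genes in all these cells.

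Among genes with a name, the steepest falls at 6 h included early signalling transcripts. Gains were smaller and fewer with this scaling and filter. The filter kept only genes well above background on all 12 arrays. A gene undetected at 0.5 h and raised by 6 h therefore could not be counted. Of the 21479 genes, 3447 passed limma's moderated test at an adjusted p under 0.05 (16.0%), 917 of them higher at 6 h (4.27%) and 2530 lower (11.8%). A called difference of at least 1 on the log2 scale was found for 11 genes in the higher direction (0.0512%) and 79 in the lower (0.368%). The 3 arrays at 6 h lay wholly above those at 0.5 h for 3081 genes (14.3%) and wholly below for 5452 (25.4%). The median difference over all genes was -0.04. The split of calls depended on scaling: with each array centred on its median, 2026 genes were called higher and 1460 lower, and the median difference was 0.06. Leaving out 1 array moved the higher calls to between 486 and 1011 and the lower to between 1591 and 2741, and 1580 of the 3447 calls held without any 1 array. In every alternative but normexp, 238 genes were called higher (1.11%) and 1024 lower (4.77%), and 46 genes were called in every alternative (0.214%). Higher calls fell by over 1.5 times without 0.5 h replicate 2 (536) or 3 (486) or without 6 h replicate 1 (524), 2 (504) or 3 (496). Lower calls did so without 0.5 h replicate 2 (1616) or 6 h replicate 1 (1626) or 3 (1591).

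The arrays of the 2 times also differed in background. At 0.5 h, 64.1 to 68.3% of the 43379 spots that are not controls were well above background and the median local background was 64 to 86, against 83.7 to 85.4% and 38 to 42 at 6 h. The median level of 153 negative control spots was -6.95, -7.14 and -6.69 at 0.5 h and -9.52, -9.5 and -9.69 at 6 h. The processed signal of spots without a target was thus lower at 6 h on this scale. The 0.5 h arrays shared 1 slide and scan day, while the 6 h arrays lay on other slides and were scanned on the day of the 3 h arrays. Slide and scan day therefore cannot be told apart from time in this comparison. With genes split by level into 10 bins, in the dimmest bin the median difference was -0.24, with 25.7% called lower and 1.96% higher, and it was 0.23 after normexp background correction. In bins 6 to 9 it lay between -0.01 and 0.01, and normexp gave between -0.08 and 0.03. Normexp left 47 genes called, 8 higher and 39 lower, all 47 of them also called from the processed signal. Of the called genes named here, Nfkbia, Dusp1, Errfi1, Sgk1, Snf1lk, Egr2, Cyp4a1 and P2ry5 kept their call under normexp and all others lost it. Among those that lost it, the size of the difference changed unevenly. Apold1 went from -2.40 to -1.93, Cyr61 from -1.73 to -1.51 and Max from 1.18 to 1.09. Gem went from -3.09 to -1.37 and Hnrnpul1 from -1.08 to -0.52. The part of the background in the other calls was not tested.

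**Figure D1:**
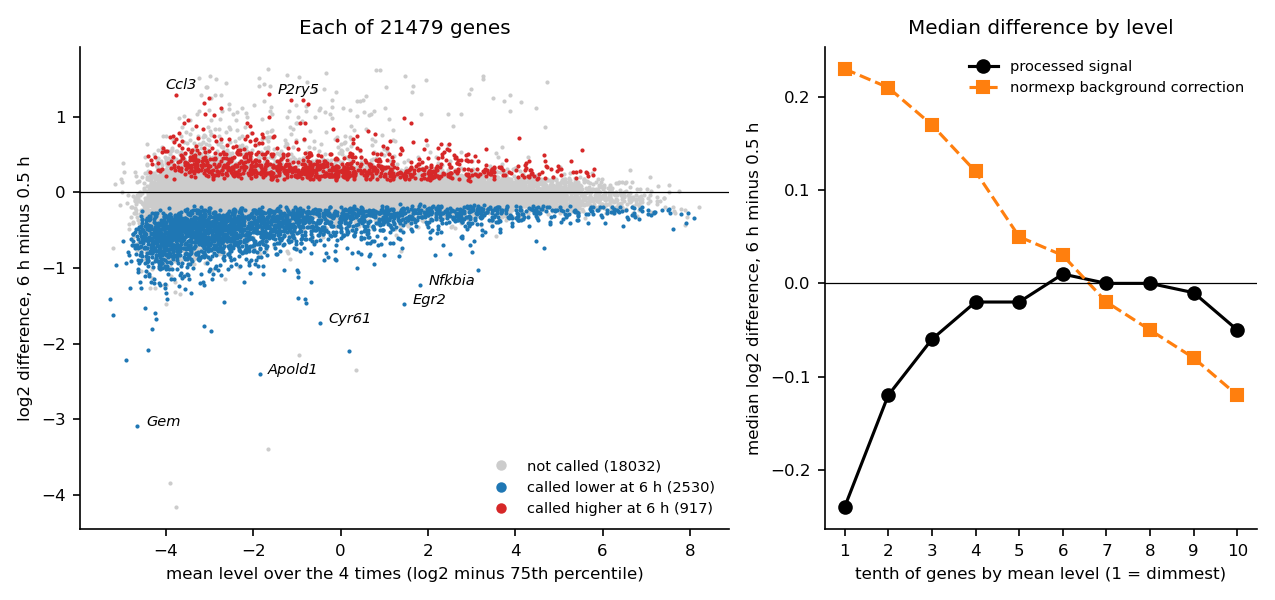
Left, the log2 difference at 6 h minus 0.5 h of each gene against its mean level over the 4 times, with called genes coloured (917 higher, 2530 lower). Right, the median difference in each of 10 bins of genes by level, which is -0.24 in the dimmest bin with the processed signal and 0.23 with normexp background correction.

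Some immediate early genes were called higher at 6 h and others lower. Of 42 listed, 36 were matched and measured, and 5 of these were called higher and 5 lower. The share was 13.9% each way, against 4.27% higher and 11.8% lower over all genes. The listed Sik1 was not matched to its older name on the array, Snf1lk, so all counts of this list leave it out. Snf1lk was called lower, also under normexp. The median difference was -0.03 against -0.04 over all genes, and the share called lower lay near that over all genes. With 1 array left out, 0 to 5 members were called higher and 3 to 6 lower. Normexp left 0 higher and 1 lower. Gem, a small GTPase that restrains calcium channels and the cytoskeleton, read -3.10, -1.74 and -2.82 at 0.5 h and -5.62, -5.60 and -5.71 at 6 h. All 3 arrays at 6 h lay at one low level, far below the scattered 0.5 h values. Gem fell by 3.09 on the log2 scale (SE 0.29, limma adjusted p = 0.000665), and its probe lies at chr5:26003029-26004574 in rn4, across spliced sequence. Under normexp the difference was -1.37 and was not called.

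Cyr61, a secreted matrix protein of the CCN family that reports growth factor and mechanical signals, gave levels of 1.11, 0.05 and 0.42 at 0.5 h and -1.33, -0.95 and -1.35 at 6 h. The groups did not overlap, and the gene fell by 1.73 (SE 0.28, adjusted p = 0.00332). A second Cyr61 probe fell by 1.47 (SE 0.27, adjusted p = 0.00591). Egr2, a zinc finger factor induced by activity in neurons and also the master regulator of myelination in Schwann cells, read 2.78, 1.83 and 2.28 at 0.5 h against 0.64, 0.86 and 0.96 at 6 h. It fell by 1.48 (SE 0.22, adjusted p = 0.00251), and the lowest 0.5 h array stood above the highest 6 h array. The orphan nuclear receptor Nr4a1 fell by 0.40 (SE 0.10, adjusted p = 0.0255). Egr4, chosen after its values were seen, fell by 0.53 (SE 0.15, adjusted p = 0.0394), and its difference was 0.08 under normexp. Nr4a1 was no longer called once any 6 h array, or 0.5 h replicate 1 or 3, was dropped (adjusted p 0.0633 to 0.087). Dropping any array of 0.5 or 6 h, or 9 h replicate 3, did the same for Egr4 (0.0508 to 0.122). Centring on the median also ended both calls, and quantile scaling that of Egr4.

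Other immediate early genes rose over the same interval. Junb, an AP-1 subunit, rose by 0.50 (SE 0.13, adjusted p = 0.0244), and the growth arrest genes Gadd45b and Gadd45g rose by 0.50 (SE 0.13, adjusted p = 0.0256) and 0.46 (SE 0.12, adjusted p = 0.0269). Myc rose by 0.29 (SE 0.09, adjusted p = 0.0471), as did Klf10, a TGF-beta induced repressor chosen after its values were seen, by 0.28 (SE 0.08, adjusted p = 0.0488). These calls were fragile. Junb lost its call without 0.5 h replicate 2 or 6 h replicate 1 or 2 (adjusted p 0.0693 to 0.0866). Both Gadd45 genes lost theirs without 0.5 h replicate 2 or 3 or 6 h replicate 1 or 2 (0.062 to 0.0914 for Gadd45b, 0.057 to 0.0936 for Gadd45g). Of the fits without 1 array, Myc kept its call in those without 0.5 h replicate 1 or 9 h replicate 3 (0.0535 to 0.146 in the others), and Klf10 in those without 3 h replicate 2 or 3 or 6 h replicate 3 (0.0547 to 0.153 in the others). The founding AP-1 and Egr members were not called: Fos differed by 0.18 (SE 0.32, adjusted p = 0.746), and Egr1 by -0.39 (SE 0.18, adjusted p = 0.175).

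**Figure D2:**
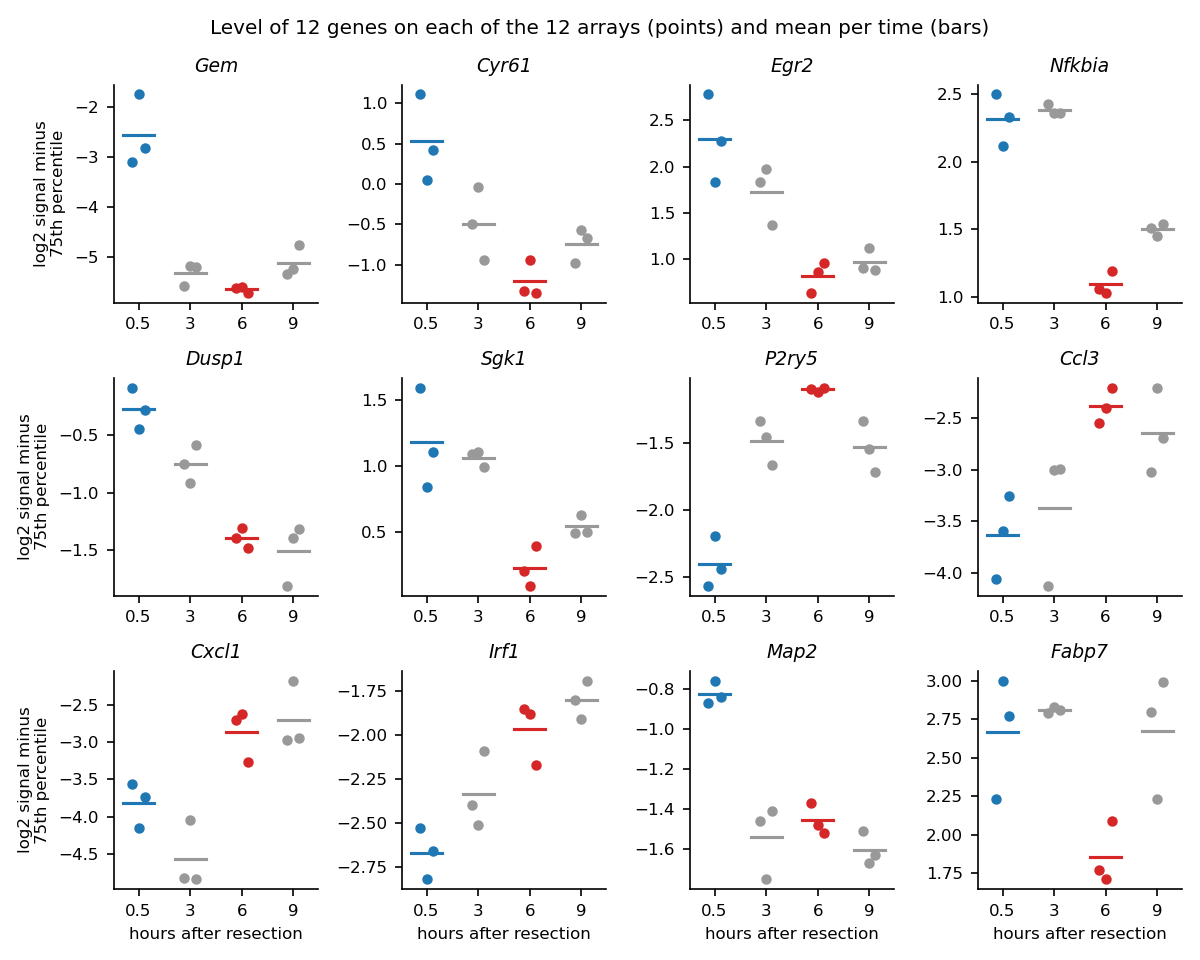
Level (log2 signal minus the array's 75th percentile) of 12 genes on each of the 12 arrays against hours after resection, with a bar at the mean of each time, 0.5 h in blue and 6 h in red. Nfkbia stays near its 0.5 h level at 3 h and is low at 6 h, while Gem is already low at 3 h.

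Dusp1, Errfi1 and Spry4, which switch signalling off, fell. Of 12 measured MAP kinase phosphatases and receptor kinase feedback inhibitors, these 3 were called lower (25% against 11.8% over all genes), none was called higher, and the median difference was -0.16. Dusp1, a nuclear phosphatase of p38 and JNK, read -0.09, -0.45 and -0.28 at 0.5 h and -1.39, -1.31 and -1.48 at 6 h. The 2 groups were well apart, and Dusp1 fell by 1.12 (SE 0.14, adjusted p = 0.00125). Errfi1, which blocks the kinase of the EGF receptor, stood at 3.79, 3.31 and 3.76 and then at 2.59, 2.39 and 2.79, a fall of 1.03 (SE 0.14, adjusted p = 0.0019). Spry4, an inhibitor of the Ras pathway, fell by 0.39 (SE 0.09, adjusted p = 0.0148), a call lost without 6 h replicate 1 (adjusted p = 0.053) and with median centring.

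Nfkbia encodes I-kappaB-alpha, the inhibitor that NF-kappaB itself induces. Its levels were 2.50, 2.12 and 2.33 at 0.5 h and 1.06, 1.03 and 1.19 at 6 h. The spread within each time was small beside the gap, and it fell by 1.22 (SE 0.09, adjusted p = 0.000314), to 0.429 times its 0.5 h signal. The difference was -1.29 under normexp (adjusted p = 0.00609). At 3 h it still stood 0.06 from its 0.5 h level (adjusted p = 0.629), and the fall between 3 and 6 h was 1.29 (adjusted p = 6.52e-06). The 3 and 6 h arrays shared a scan day but lay on different slides, so slide and time cannot be told apart there either. The probe lies at chr6:75730438-75730497 in rn4. Of the 14 measured NF-kappaB subunits, inhibitors and kinases, Nfkbia was the 1 called lower (7.14%, below the 11.8% over all genes). The subunit Rel (0.34, SE 0.06, adjusted p = 0.00432) and the inhibitor Nfkbib (0.24, SE 0.07, adjusted p = 0.0478) were called higher (14.3% against 4.27%). Rel differed by -0.10 without background subtraction, and the Nfkbib call held only in the fits without 0.5 h replicate 1, 3 h replicate 2 or 9 h replicate 3, with an adjusted p of 0.0512 to 0.15 in the others.

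Nfkbia, Dusp1 and Errfi1 are also glucocorticoid targets, a list of 22 measured genes with 5 called lower (22.7%), 1 higher (4.55%) and a median of -0.07, against 11.8 and 4.27% over all genes. Sgk1, a kinase that controls ion transport, read 1.59, 0.84 and 1.1 at 0.5 h and 0.20, 0.09 and 0.39 at 6 h, without overlap, and fell by 0.95 (SE 0.16, adjusted p = 0.00383). Ddit4, an inhibitor of mTORC1, read 0.17, 0.04 and 0.33 and then -0.15, -0.63 and -0.19, a difference of -0.50 (adjusted p = 0.043). Its call ended without any 0.5 h array, 3 h replicate 1, 6 h replicate 2 or 3 or 9 h replicate 2 (adjusted p 0.0553 to 0.133), and with median or quantile scaling. The lipocalin Lcn2 was the called member in the higher direction (0.67, SE 0.20, adjusted p = 0.0491), a call lost without any 0.5 h array, 3 h replicate 1 or 2, 6 h replicate 1 or 3 or 9 h replicate 2 (0.056 to 0.137). Snf1lk, a salt-inducible kinase induced by cyclic AMP and chosen after its values were seen, read 0.89, 0.70 and 0.73 and then 0.11, 0.03 and -0.03, and fell by 0.73 (SE 0.08, adjusted p = 0.000874).

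Promoters are shown for 5 called genes of these signalling groups whose window holds a match to the site of a factor known for the early response. They come from RefSeq in GRCr8, run to just past the transcription start, and have the match in capitals. NF-kappaB sites lie in Nfkbia (chr6:78597023-78597322, minus strand), which fell, and in the chemokine gene Cxcl1 (chr14:17479272-17479571, minus strand) and in Irf1 (chr10:38417685-38417984, plus strand), which rose. Dusp1 (chr10:17184603-17184902, plus strand) has the cyclic AMP response element TGACGTCA, and Egr2 (chr20:21054392-21054691, minus strand) a CArG box, the site of serum response factor.

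Nfkbia: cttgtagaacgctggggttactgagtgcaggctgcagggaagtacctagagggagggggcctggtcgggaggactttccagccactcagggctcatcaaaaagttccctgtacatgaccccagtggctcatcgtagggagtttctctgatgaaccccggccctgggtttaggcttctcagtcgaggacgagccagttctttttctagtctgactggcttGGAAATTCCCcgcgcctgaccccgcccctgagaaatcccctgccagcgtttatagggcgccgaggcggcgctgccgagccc

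Cxcl1: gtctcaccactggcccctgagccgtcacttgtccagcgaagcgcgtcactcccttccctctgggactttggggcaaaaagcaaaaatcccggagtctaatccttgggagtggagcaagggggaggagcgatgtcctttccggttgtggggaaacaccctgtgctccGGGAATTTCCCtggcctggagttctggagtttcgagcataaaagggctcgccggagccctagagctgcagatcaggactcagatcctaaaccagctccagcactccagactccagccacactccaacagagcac

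Irf1: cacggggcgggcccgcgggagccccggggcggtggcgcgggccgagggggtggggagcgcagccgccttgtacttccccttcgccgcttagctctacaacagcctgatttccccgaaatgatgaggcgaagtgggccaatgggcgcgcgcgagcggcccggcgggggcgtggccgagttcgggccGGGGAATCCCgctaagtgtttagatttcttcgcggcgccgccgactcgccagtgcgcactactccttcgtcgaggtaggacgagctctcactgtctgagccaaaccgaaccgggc

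Dusp1: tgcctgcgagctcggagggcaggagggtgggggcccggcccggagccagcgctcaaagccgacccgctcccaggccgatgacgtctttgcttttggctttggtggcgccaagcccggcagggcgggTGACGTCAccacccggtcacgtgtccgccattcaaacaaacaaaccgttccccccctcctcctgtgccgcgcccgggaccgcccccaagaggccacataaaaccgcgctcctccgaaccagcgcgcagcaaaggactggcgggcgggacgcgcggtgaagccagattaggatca

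Egr2: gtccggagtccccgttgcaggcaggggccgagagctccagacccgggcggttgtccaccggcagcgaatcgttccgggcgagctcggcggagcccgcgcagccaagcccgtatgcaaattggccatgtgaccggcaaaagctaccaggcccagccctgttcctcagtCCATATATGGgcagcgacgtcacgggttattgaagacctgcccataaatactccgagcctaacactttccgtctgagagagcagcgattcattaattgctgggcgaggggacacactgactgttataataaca

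The NF-kappaB match starts 31 bases before the start in Nfkbia and 65 in Irf1, and 2 overlapping matches begin 84 bases before it in Cxcl1. TGACGTCA starts 124 bases before the start in Dusp1, and the CArG box 83 before it in Egr2. Other named genes were searched for the same sites. The windows of Cyr61 (now Ccn1), Apold1, Rgs1, Errfi1, Sgk1, Snf1lk (now Sik1), Icam1 and Myd88 held none of them. Rel and Lcn2, both called higher, hold 2 and 1 NF-kappaB matches and are not shown. No window was found for Gem, Ccl2 and Ccl3. On both strands, 1400 of 33469 promoter windows of this length hold an NF-kappaB match (4.18%), 612 hold TGACGTCA (1.83%) and 548 hold a CArG box (1.64%). Of 9001 tested genes with a window, 4.11% were called higher and 6.95% lower. Among the 462 with an NF-kappaB match the shares were 4.33 and 7.14%, among the 286 with TGACGTCA 4.55 and 5.59%, and among the 120 with a CArG box 1.67 and 2.5%. The shares of genes with an NF-kappaB match lay close to those of all genes with a window, so Nfkbia, Cxcl1 and Irf1 are single examples and the match went with both directions.

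Several chemokine and innate immune genes rose. Among 26 measured cytokines, chemokines, receptors and leukocyte adhesion molecules, 4 were called higher (15.4% against 4.27% over all genes) and 1 lower (3.85% against 11.8%), with a median of 0.04. Ccl3, a monocyte chemoattractant, read -4.06, -3.60 and -3.25 at 0.5 h and -2.54, -2.40 and -2.20 at 6 h, with no overlap. It rose by 1.25 (SE 0.32, adjusted p = 0.0252), 2.39 times in signal. The neutrophil attractant Cxcl1 stood at -3.57, -4.15 and -3.74 and then at -2.71, -2.63 and -3.27, 1.94 times as much signal at 6 h, and rose by 0.95 (SE 0.28, adjusted p = 0.0441). Its rise from 3 h was 1.70 (adjusted p = 0.00261). Ccl3 was no longer called once any 6 h array, or 0.5 h replicate 1 or 2, was dropped (adjusted p 0.053 to 0.0807). For Cxcl1 this held of each 0.5 h array, 3 h replicate 1 and 6 h replicates 1 and 2 (0.0547 to 0.141). Its call also ended with cyclic loess scaling and without background subtraction.

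Ccl2, the main chemoattractant of monocytes, had narrow groups, at 2.72, 2.69 and 2.67 and then 3.12, 3.21 and 2.98. It rose by 0.41 (SE 0.09, adjusted p = 0.0113). The adhesion molecule Icam1 rose by 0.47 (SE 0.13, adjusted p = 0.0372), but was not called once any 6 h array, or 0.5 h replicate 2 or 3, was dropped (adjusted p 0.0525 to 0.12). Irf1, a transcription factor of interferon and NF-kappaB responses, read -2.53, -2.82 and -2.66 at 0.5 h and -1.85, -1.88 and -2.17 at 6 h, and rose by 0.70 (SE 0.13, adjusted p = 0.00543). Myd88, the adaptor of Toll-like receptors, rose by 0.78 (SE 0.11, adjusted p = 0.00191). Its levels were -2.43, -2.45 and -2.55 and then -1.71, -1.64 and -1.73. Of the 30 measured interferon response genes, Irf1 was the 1 called higher, 1 was called lower, 3.33% each way and below the shares over all genes, and the median was -0.23. The lower call was lost with median or quantile scaling.

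These genes were read beside leukocyte markers, which came from few measured genes. None of 15 measured macrophage markers was called by limma and none had an unadjusted p under 0.05. Their mean level was 1.04, 0.75 and 0.99 at 0.5 h and 0.80, 1.25 and 1.26 at 6 h, and the median difference was 0.18. For 8 of 15 neutrophil markers the means were -0.56, -0.66 and -0.04 and then -0.44, -0.53 and 1.49, with 6 h replicate 3 far above the others, and Lcn2 was the 1 called. The granule genes Mpo, Ltf, Mmp8 and Mmp9 were not measured. Of 6 measured lymphocyte markers, none was called and none had an unadjusted p under 0.05, and the T and B cell genes Cd3e, Cd4, Cd8a and Cd79b were not measured. Their part in the rise of the chemokines was not tested, and in whole ganglia more cells of a type and more RNA per cell cannot be told apart.

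Other tissue lay on the 6 h arrays unevenly. The mean of 20 skeletal muscle markers was 0.83, 1.04 and 1.57 at 0.5 h and 1.01, 3.93 and 2.30 at 6 h, with a median difference of 1.31. The 6 fat cell markers stood at -1.86, -1.87 and -1.57 and then at -1.45, -1.06 and -0.67 (median 0.84), and 9 red blood cell markers at -0.36, 0.03 and 0.42 and then at -0.17, -0.02 and 1.37 (median 0.42). No member of these 3 lists was called by limma and none had an unadjusted p under 0.05. Among markers of the ganglion itself, mean levels of the sensory neuron and satellite glia lists differed little among the 6 arrays. The 11 sensory neuron markers had means of 3.96, 4.10 and 3.96 and then 3.98, 3.95 and 3.82. For 14 of 16 satellite glia markers they were 2.41, 2.36 and 2.43 and then 2.28, 2.34 and 2.41. Means of 27 pan-neuronal genes did not overlap, at 3.51, 3.60 and 3.59 and then 3.47, 3.46 and 3.42. Nor did those of 5 of 9 oligodendrocyte markers, at -1.25, -1.27 and -1.08 and then -1.63, -1.47 and -1.50. Schwann cell, endothelial and fibroblast means overlapped between the times.

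**Figure D3:**
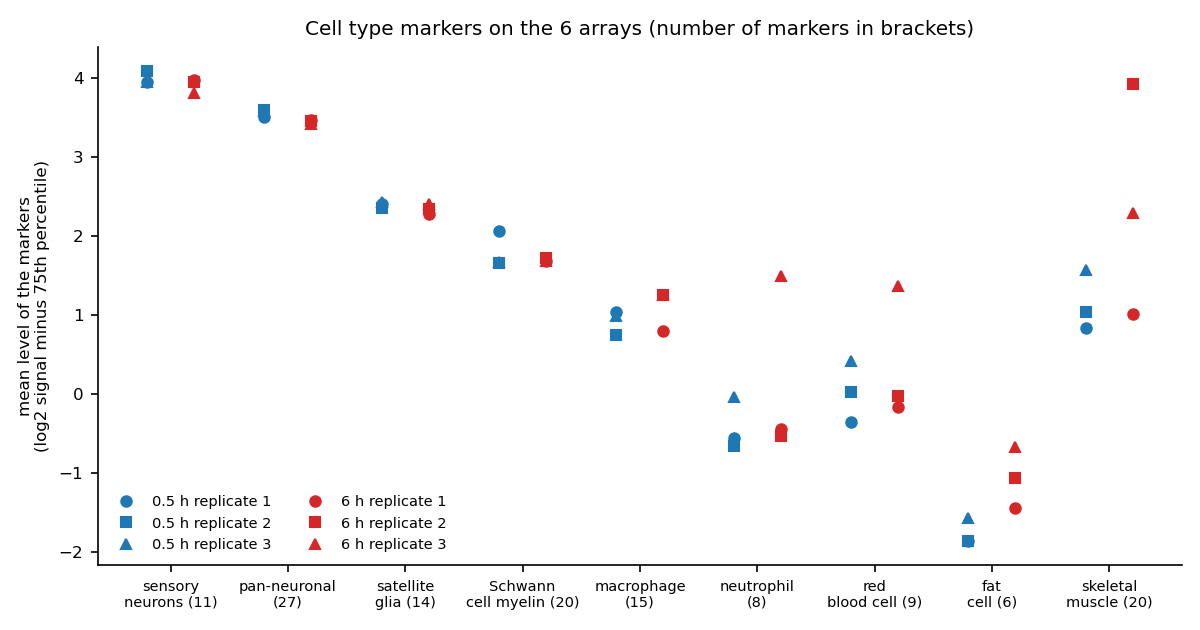
Mean level (log2 signal minus the 75th percentile) of marker genes of each cell type on the 6 arrays, 0.5 h in blue and 6 h in red, with 1 symbol shape per replicate and the number of markers in brackets. Muscle markers reach 3.93 on 6 h replicate 2 and neutrophil markers 1.49 on 6 h replicate 3.

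The highest rises of named genes included P2ry5, Max and Adh1. P2ry5, now Lpar6, a receptor for lysophosphatidic acid, read -2.57, -2.20 and -2.44 at 0.5 h and -1.1, -1.12 and -1.09 at 6 h. The 6 h arrays were nearly identical, and it rose by 1.30 (SE 0.12, adjusted p = 0.000664), 2.47 times in signal, and by 1.20 under normexp (adjusted p = 0.0339). Its probe lies at chr15:53876199-53876258 in rn4. Max, the partner of Myc, rose by 1.18 (SE 0.17, adjusted p = 0.00212) from -4.05, -4.06 and -4 to -2.82, -2.88 and -2.86.

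The alcohol dehydrogenase Adh1 read -1.99, -1.85 and -1.59 and then -0.85, -0.71 and -0.22, and rose by 1.22 (SE 0.25, adjusted p = 0.0101). For Adh1, 6 h replicate 3 was the highest array, as it was for the neutrophil, red blood cell and fat cell markers, and the part of those markers was not tested. The amylase Amy1a rose by 1.03 (SE 0.18, adjusted p = 0.00516), the ring finger protein Lonrf3 by 0.91 (SE 0.16, adjusted p = 0.00433), and the matrix metalloproteinase Mmp11 by 0.73 (SE 0.10, adjusted p = 0.00171). Amy1a was not called without background subtraction. The forkhead factor Foxs1 read 0.56, 0.35 and 0.10 and then 1.08, 1.29 and 1.07, a rise of 0.81 (SE 0.17, adjusted p = 0.0115). Nupr1, a stress-induced chromatin protein, rose by 0.92 (SE 0.24, adjusted p = 0.0298), a call lost without 0.5 h replicate 2 or 3 or 6 h replicate 2 or 3 (adjusted p 0.0814 to 0.1). The extracellular glutathione peroxidase Gpx3 rose by 0.87 (SE 0.20, adjusted p = 0.0157), a call lost without 0.5 h replicate 2 or 6 h replicate 2 or 3 (0.0563 to 0.0602) and without background subtraction.

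The steepest falls of named genes also included Apold1, Rgs1 and Pcdh12. Apold1, an early response gene of endothelial cells, read 0.25, -0.68 and -0.11 at 0.5 h and -2.42, -2.66 and -2.66 at 6 h, and fell by 2.40 (SE 0.22, adjusted p = 0.000664). Rgs1, which shortens signalling by G proteins, stood at -2.93, -3.39 and -2.95 and then at -5.60, -5.00 and -4.95, a fall of 2.09 (SE 0.26, adjusted p = 0.00125) that was -0.85 under normexp (adjusted p = 0.751). Among 20 regulators of G protein signalling and RGK GTPases, Gem and Rgs1 were the 2 called lower and Rrad, a relative of Gem, the 1 called higher (0.53, SE 0.11, adjusted p = 0.0113), shares of 10 and 5% against 11.8 and 4.27% over all genes. Pcdh12, an endothelial protocadherin, read -4.05, -4.05 and -3.58 and then -5.82, -5.56 and -5.17, and fell by 1.62 (SE 0.20, adjusted p = 0.00124), but its difference was -0.34 under normexp (adjusted p = 0.915). Of 16 measured endothelial markers, 1 was called lower (6.25%, below the 11.8% over all genes) and none higher, with a median of -0.05. That marker, the VEGF receptor Flt1, fell by 0.48 (SE 0.11, adjusted p = 0.0138), but not without 0.5 h replicate 3 or 6 h replicate 1 or 3 (adjusted p 0.05 to 0.0538) or with quantile scaling, and was 0.16 under normexp. A second Flt1 probe gave -0.01 (adjusted p = 0.956).

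Notch2, Zscan10 and Tbx4 were also among the 15 steepest falls of genes with a name. The Notch2 receptor read -3.13, -2.12 and -4.32 at 0.5 h and -4.88, -4.71 and -5 at 6 h, so the 0.5 h arrays were widely spread but still all higher. It fell by 1.67 (SE 0.40, adjusted p = 0.0191), a call lost without 0.5 h replicate 1 or 6 h replicate 1 or 3 (adjusted p 0.0506 to 0.062). The zinc finger gene Zscan10, known from pluripotent cells, fell by 1.59 (SE 0.33, adjusted p = 0.0105), and the hindlimb factor Tbx4 by 1.22 (SE 0.26, adjusted p = 0.011). Under normexp the differences were -0.62 for Notch2, -0.35 for Zscan10 and -0.35 for Tbx4, none of them called.

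Cyp4a1, an omega-hydroxylase of fatty acids, had its lowest level of the 4 times at 6 h. It read -0.54, -0.71 and -0.58 at 0.5 h and -2.20, -1.81 and -2.20 at 6 h and fell by 1.46 (SE 0.13, adjusted p = 0.000608), with means of -1.08 at 3 h and 0.59 at 9 h. It was 0.99 below 3 h on the log2 scale (adjusted p = 0.000557) and differed from 9 h by -2.66 (adjusted p = 1.81e-06). In all, 295 genes were lower at 6 h than at each other time (1.37% of the genes tested) and 66 were higher (0.307%), with all 3 differences called. Against 3 h alone, 7.47% of genes were called higher and 8.90% lower, and against 9 h alone 7.49 and 13.6%. Lrat, which esterifies retinol, was one of the 66, at -1.99, -2.16 and -2.27 at 0.5 h and -1.89, -1.55 and -1.81 at 6 h (0.39, adjusted p = 0.0295). Its call at 6 h against 0.5 h ended without 0.5 h replicate 2 or 3 or 6 h replicate 2 or 3 (adjusted p 0.0562 to 0.0996) and without background subtraction. The spindle protein gene Traf4af1 was another and rose by 0.43 (adjusted p = 0.00272), though not without background subtraction. The number of genes at an extreme, 361, fell by over 1.5 times without 0.5 h replicate 2 (237), 3 h replicate 1 (192) or 6 h replicate 1 (219) or 3 (125).

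No measured gene on the list of the slower injury program was called higher at 6 h than at 0.5 h. Of 40 listed, 36 were measured, and Il6 was not among them. A gene not well above background at 0.5 h could not be measured, so 1 induced only later is not covered. Of 36 measured nerve injury and regeneration genes none was called higher, against 4.27% over all genes, and 2 were called lower (5.56% against 11.8%). The median was -0.07, and 7 had an unadjusted limma p under 0.05. With median centring 1 was called higher. Atf3, induced in neurons whose axon is cut, read 1.82, 1.19 and 2.18 at 0.5 h and 1.53, 1.89 and 1.71 at 6 h. The groups overlapped and the difference was -0.02 (SE 0.22, adjusted p = 0.964), with a positive sign under median centring (0.07). Jun read 3.18, 2.90 and 3.06 and then 2.90, 2.97 and 2.85 (-0.14, SE 0.08, adjusted p = 0.283). Values for Stat3 (-0.10), Socs3 (-0.18), Gadd45a (0.19), Klf6 (-0.13) and Gap43 (-0.01) were not called either, and Gap43 turned positive under 3 scaling alternatives and without background subtraction. Sox11, a driver of axon regrowth, was dim at -4.14, -4.19 and -3.87 and fell to -5.17, -4.60 and -4.83 (-0.80, SE 0.16, adjusted p = 0.00937). The other call, the small proline-rich gene Sprr1al, fell by 0.81 (SE 0.13, adjusted p = 0.00341). Under normexp the 2 differences were 0.01 each.

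Of 27 pan-neuronal genes, 6 were called lower at 6 h (22.2% against 11.8% over all genes) and 1 higher (3.7% against 4.27%), with a median of -0.14. Median centring left 3 lower. Map2, the dendritic microtubule protein, read -0.87, -0.76 and -0.84 at 0.5 h and -1.37, -1.48 and -1.52 at 6 h, and fell by 0.63 (SE 0.09, adjusted p = 0.00213). Its second probe fell by 0.41 (adjusted p = 0.0069). Map1b fell by 0.35 (SE 0.06, adjusted p = 0.00569), a call lost when its probes were averaged, and its other probes gave between -0.32 and 0.02 with none called. Syt1, the calcium sensor of vesicle release, fell by 0.39 (SE 0.07, adjusted p = 0.00693) from -1.78, -1.73 and -1.78 to -2.24, -2.06 and -2.16, while its other probes gave 0 and -0.29 and were not called, and normexp gave -0.17 for the first. The vesicle protein Syp rose, from 2.31, 2.19 and 2.13 to 2.67, 2.54 and 2.53 (0.37, SE 0.07, adjusted p = 0.00713). Among 46 vesicle and SNARE genes, 5 were called higher (10.9%) and 3 lower (6.52%), with a median of -0.05.

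Of 38 motors and adaptors of axonal transport, 4 were called lower and 1 higher, shares below the 11.8 and 4.27% over all genes, with a median of -0.06. Kif5b, a conventional kinesin, read 6.38, 6.32 and 6.26 and then 5.92, 5.93 and 5.89, and fell by 0.41 (SE 0.05, adjusted p = 0.00127). Its other probes gave -0.25 (adjusted p = 0.0171) and -0.19 (adjusted p = 0.1). The dynein chain Dync1i1 fell by 0.31 (SE 0.06, adjusted p = 0.00882), though not with median centring.

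None of 31 measured sodium, calcium, TRP, acid-sensing and purinergic channels was called by limma, and 8 had an unadjusted p under 0.05 (median -0.04). Potassium and pacemaker channels had 7 of 37 called lower (18.9% against 11.8% over all genes) and none higher (median -0.11). This count was 0 with median centring (limma, 10 at an unadjusted p under 0.05), 2 with quantile scaling and 0 to 9 when 1 array was left out. Kcnd2, an A-type potassium channel, differed by -0.77 (SE 0.22, adjusted p = 0.0382), a call lost without any 0.5 h array or 6 h replicate 1 or 2 (adjusted p 0.0553 to 0.12). It was also lost with median or quantile scaling, and the difference was -0.17 under normexp. Of 21 neuropeptide genes, Chgb, a granin of secretory vesicles, fell from 5.82, 5.89 and 5.86 to 5.49, 5.42 and 5.46 (-0.40, SE 0.06, adjusted p = 0.00352). Npff, a peptide that modulates opioid action, rose from -0.79, -0.92 and -0.86 to -0.47, -0.49 and -0.46 (0.38, SE 0.06, adjusted p = 0.0032). Sensory neuron identity factors, Sox11 among them, had 4 of 21 called lower (19% against 11.8% over all genes, median -0.13). None was called higher, against 4.27% over all genes. Median centring left 1 lower and normexp 0, and leaving out 1 array gave 1 to 4.

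In glia, Fabp7, a lipid carrier of satellite cells, read 2.23, 3.00 and 2.77 at 0.5 h and 1.77, 1.71 and 2.09 at 6 h. It fell by 0.81 (SE 0.22, adjusted p = 0.0305), a call lost without 0.5 h replicate 2 or 3 or 6 h replicate 1 or 2 (adjusted p 0.0888 to 0.106). It was 1 of 2 called lower among 14 satellite glia markers, with none higher and a median of -0.01. Of 20 Schwann cell myelin genes, 3 were called lower (median 0.02). The shares called lower, 14.3 and 15%, lay near the 11.8% over all genes. Pmp22, a protein of compact myelin, fell from 8.07, 7.74 and 7.92 to 7.45, 7.50 and 7.36 (-0.48, SE 0.08, adjusted p = 0.00364), though not with quantile scaling. Mean levels of the myelin genes were 2.07, 1.66 and 1.67 and then 1.68, 1.72 and 1.69, so 0.5 h replicate 1 alone stood higher.

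The cytosolic chaperone Hsp90ab1 fell from 6.71, 6.80 and 6.65 to 6.32, 6.26 and 6.22 (-0.45, SE 0.06, adjusted p = 0.00189), 1 of 4 called lower among 37 heat shock proteins (10.8% against 11.8% over all genes) with none higher. Its other probes gave -0.10 (adjusted p = 0.401) and -0.25 (adjusted p = 0.0718). Hspa8 was not called (-0.02, adjusted p = 0.8), its sign turning under 3 scaling alternatives. Of 37 cholesterol and fatty acid synthesis genes, 5 were called lower (13.5%, near the share over all genes) and none higher (median -0.10), and 1 lower with median centring. They include the sterol methyl oxidase Sc4mol (-0.29, adjusted p = 0.0139), whose call also ended with median centring. Ribosomal proteins had 4 of 76 called higher and 5 lower with a median of 0, shares of 5.26 and 6.58% against 4.27 and 11.8% of all genes. Rpsa (0.29, adjusted p = 0.0101) and Rpl10a (0.26, adjusted p = 0.00814) were higher and Rps29 lower (-0.35, adjusted p = 0.00824), the last not with quantile scaling. A second Rpsa probe gave 0.15 (adjusted p = 0.104), and normexp gave 0.19 for the first and 0.17 for Rpl10a. None of 20 aminoacyl-tRNA synthetases was called by limma, and 4 had an unadjusted p under 0.05.

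Of 64 splicing factors, 6 were called lower (9.38%) and 1 higher (1.56%), below the shares of 11.8 and 4.27% over all genes. Hnrnpul1, an RNA-binding protein, fell by 1.08 (SE 0.23, adjusted p = 0.0105), but a second probe gave -0.44 (adjusted p = 0.244), and normexp gave -0.52 for the first (adjusted p = 0.786). Proteasome subunits had 3 of 45 called lower (6.67%), among them Psmd7 (-0.37, adjusted p = 0.00719), whose other probes gave -0.33 (adjusted p = 0.00245) and -0.17 (adjusted p = 0.0788). The pentose phosphate enzyme Tkt fell by 0.32 (adjusted p = 0.00584), though not with quantile scaling. Sirt5, a mitochondrial deacylase, fell by 0.67 (SE 0.13, adjusted p = 0.00711). Nfil3, a repressor in the clock's output, fell by 0.53 (SE 0.11, adjusted p = 0.0085), and was -0.18 under normexp. The stress kinase-like gene Trib3 fell by 0.43 (adjusted p = 0.00349, -0.27 under normexp), and the glutathione transferase Gstm1 rose by 0.33 (adjusted p = 0.0125). Of the 33 stress genes listed with Trib3, 2 were called each way (6.06%). Of the 32 Nrf2 targets listed with Gstm1, 4 were called higher (12.5%) and 2 lower (6.25%). The shares over all genes were 4.27% higher and 11.8% lower.

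Of 29 cell cycle genes, 3 were called higher (10.3% against 4.27% over all genes) and none lower, with a median of 0.28. Median centring gave 13 higher and quantile scaling 7, and normexp none (limma, 5 at an unadjusted p under 0.05). Cdk2 rose by 0.31 (SE 0.07, adjusted p = 0.0122), though not without background subtraction. The mitotic genes Ccnb1 and Kif20a rose by 0.57 (SE 0.15, adjusted p = 0.0306) and 0.42 (SE 0.11, adjusted p = 0.025). At 6 h Ccnb1 read -0.92, -0.86 and -0.31 and Kif20a -0.32, -0.16 and 0.01. Both were highest on 6 h replicate 3, where the neutrophil (1.49) and red blood cell (1.37) markers stood apart, and the part of those markers was not tested. A second Ccnb1 probe rose by 0.37 (adjusted p = 0.0302). The call of Ccnb1 ended without 0.5 h replicate 2 or 3 or 6 h replicate 3 (adjusted p 0.0675 to 0.0871), and that of Kif20a without 0.5 h replicate 2 or 3 or 6 h replicate 2 or 3 (0.063 to 0.0908).

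Chemosensory receptor genes had the highest share of lower calls among the lists of 12 or more measured genes. Of 1181 on the array 166 were measured, all dim as a group (median level -3.42 at 0.5 h and -3.81 at 6 h). Of these, 64 were called lower (38.6% against 11.8% over all genes) and 2 higher (1.2% against 4.27%), with a median of -0.57. Under normexp none was called either way (limma, 10 at an unadjusted p under 0.05) and the median was -0.04. With 1 array left out, 39 to 72 were called lower, and the count dropped by over 1.5 times without 6 h replicate 1 or 3. The olfactory receptor genes Olr1338 (-1.28, SE 0.26, adjusted p = 0.00925) and Olr477 (-1.26, SE 0.23, adjusted p = 0.00545) fell from the processed signal, but their differences were -0.39 and -0.03 under normexp and not called. Olr694 (-1.18, SE 0.15, adjusted p = 0.00154) and Olr1158 (-0.66, SE 0.07, adjusted p = 0.00092) were also called, and were -0.70 and 0.19 under normexp. Their levels overlap the dimmest bin of genes, whose median difference changed sign with the background correction.

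**Figure D4:**
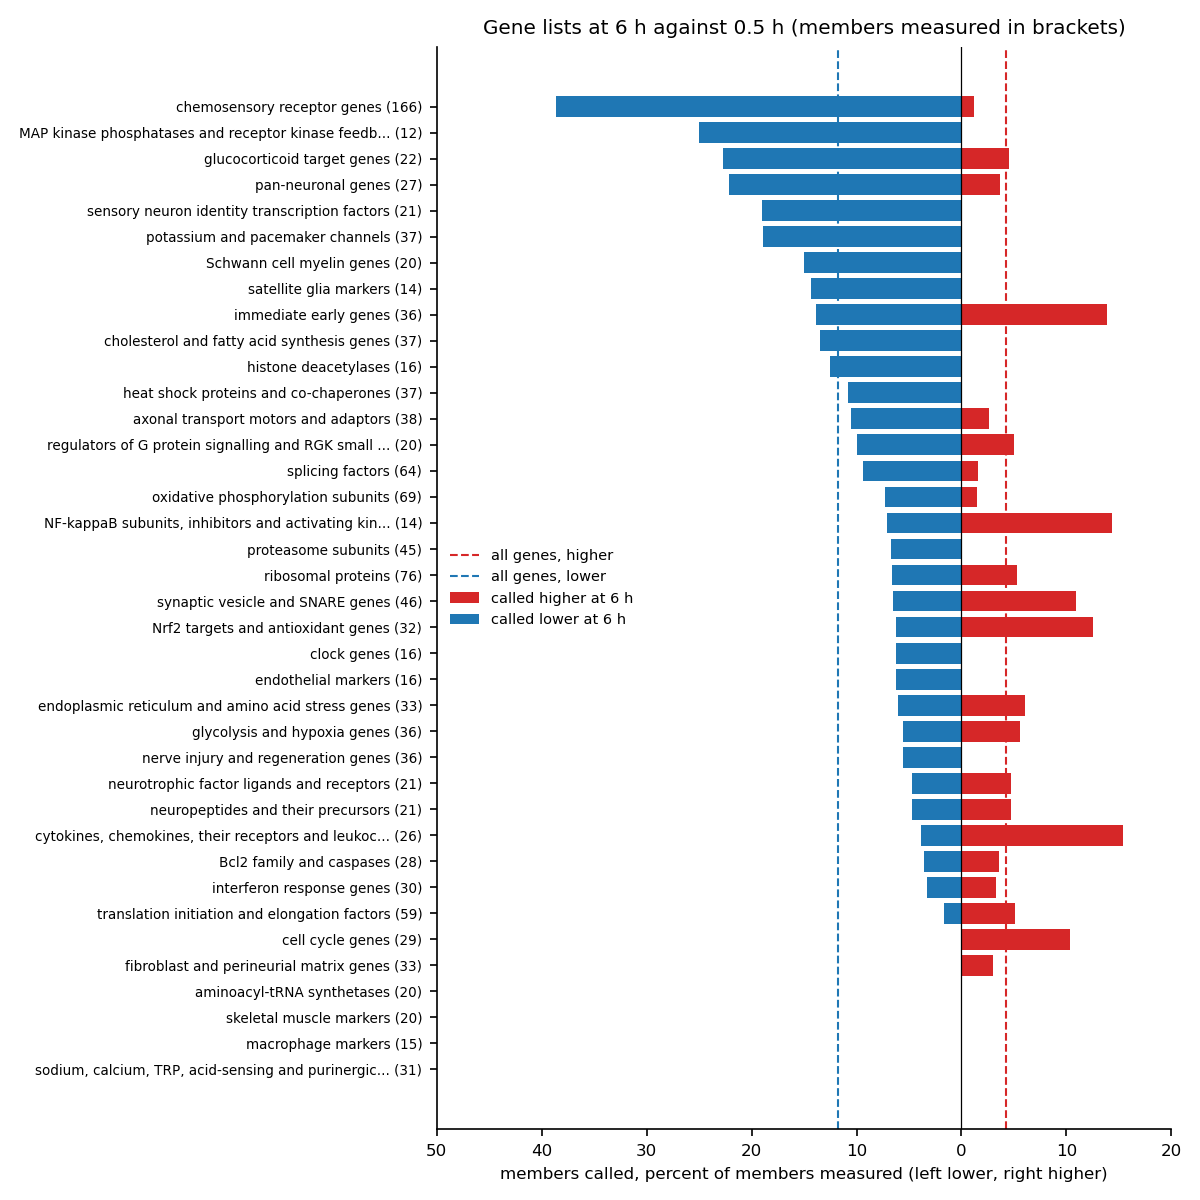
Share of the measured members of each gene list (number in brackets, lists of 12 or more) called lower at 6 h (blue, left) or higher (red, right), with dashed lines at the shares over all genes, 11.8 and 4.27%. Chemosensory receptors reach 38.6% lower, and cytokines and chemokines 15.4% higher.

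**Figure D5:**
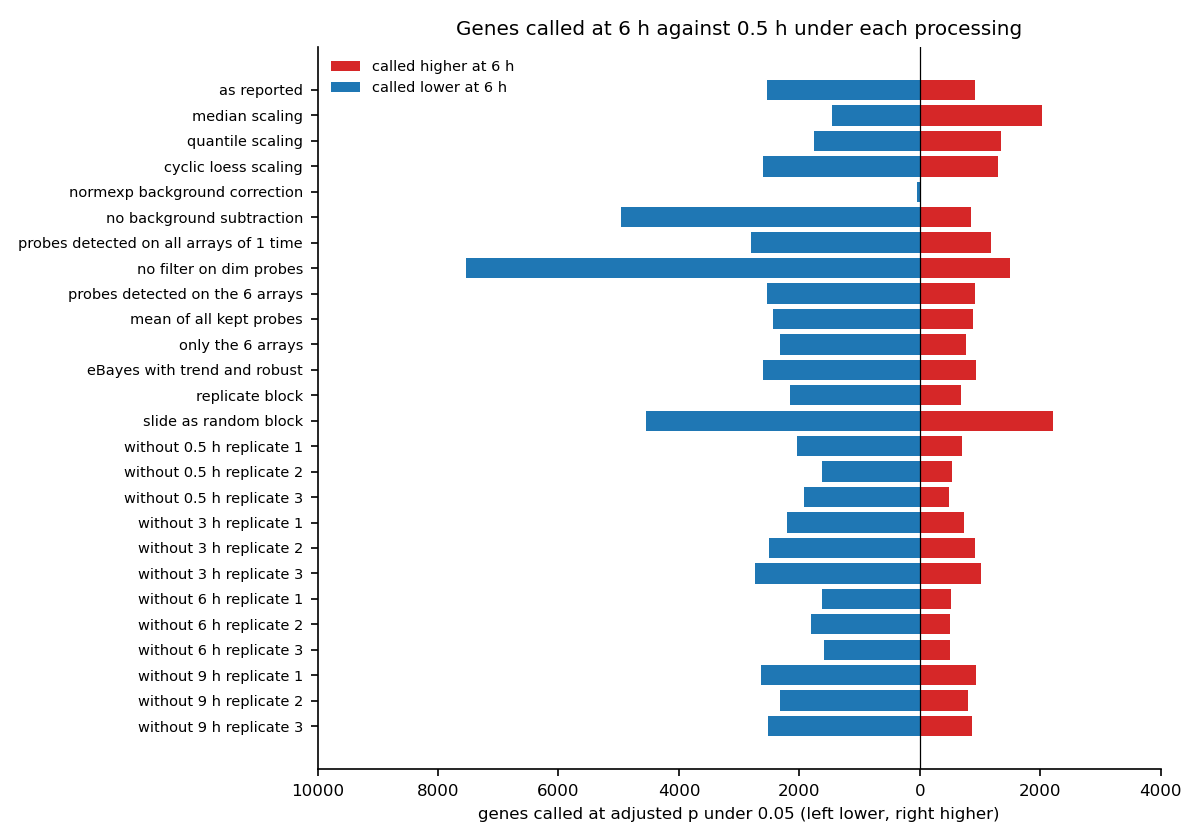
Number of genes called lower (left, blue) and higher (right, red) at 6 h under each processing. Normexp background correction leaves 8 higher and 39 lower, and centring on the median gives 2026 higher and 1460 lower.

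Called genes were also read by other probes of the same gene. A further 535 probes belong to called genes, and 363 of them differed in the gene's own direction (67.9%), against 60.7% of the 3975 other probes over all genes, and 108 were called in that direction and 13 in the opposite one. For called differences of at least 1 on the log2 scale, 3 of 3 other probes had the same direction.

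Other choices of arrays or probes ended some of the calls above. With the 6 arrays fitted alone, Ccnb1, Ddit4, Gadd45g, Gpx3, Icam1, Klf10, Lcn2, Lrat, Myc, Nfkbib and Nr4a1 were not called. Keeping probes detected at any 1 time, which adds dim genes to the adjustment, ended the calls of Cxcl1, Ddit4, Egr4, Icam1, Kcnd2, Klf10, Lcn2, Myc and Nfkbib. Quantile scaling and the mean of all probes of a gene each ended the Lcn2 call, and leaving out background subtraction those of Junb, Nfkbib and Rps29.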

How the data were processed

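Total RNA from dorsal root ganglia was labelled with Cy3 and read on 12 one-colour Agilent rat arrays, 3 for each time. Per the file headers, the authors deposited Agilent Feature Extraction 10.5.1.1 output. The deposited intensity of a spot is its processed signal, after background subtraction, and deposited flags mark spots well above background, saturated or outlying. The series' deposited table of values equals these intensities (largest difference 0). Outlier spots (76 to 218 an array) and control spots were left out, and no spot was saturated. Log2 intensities were set relative to the 75th percentile of each array. Probes well above background on all 12 arrays were kept, with 1 probe a gene, that of the highest mean, which left 21479 genes. Of these, 10845 carry only placeholder names and are counted but not named. No spot depth exists, and the number of arrays limits the precision.

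All 12 arrays were fitted in 1 model with limma 3.58.1 (lmFit and eBayes, R 4.3.3), so that the 3 and 9 h arrays add to the estimate of spread. The difference is 6 h minus 0.5 h, and p-values were adjusted by Benjamini and Hochberg over all genes, with calls at 0.05. For 85 genes a missing outlier spot left fewer arrays. The test was also run on simulated data, but no outcome of that run is given here and no result rests on it. Named genes are the 15 largest called changes each way without overlap of arrays, up to 4 called members of a list each way, chosen injury and feedback genes, genes at an extreme at 6 h, and other probes of these. The comparison, the lists and the named genes were chosen with earlier results of these data known. Alternatives comprised 12 fits without 1 array and 14 other settings of scaling, background, probe filter, probe choice, model and threshold. Promoters and current gene symbols come from RefSeq (GRCr8), and probe positions from the files (rn4). The builds are kept apart.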

Additional observations from a re-analysis of the deposited data

Results flagged for a closer look

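Of the genes named, 2 changed in opposite directions at 3 h and at 6 h against 0.5 h, with both differences called and the difference between 6 and 3 h called as well. Ddit4, the inhibitor of mTORC1, was 0.73 above its 0.5 h level at 3 h (limma adjusted p = 0.00478) and -0.50 from it at 6 h (adjusted p = 0.043), and the difference at 6 h minus 3 h was -1.24 (adjusted p = 0.000324). Lrat, which esterifies retinol, was -0.71 from its 0.5 h level at 3 h (adjusted p = 0.000818) and 0.39 above it at 6 h (adjusted p = 0.0295), and 6 h minus 3 h was 1.1 (adjusted p = 6.33e-05). The 3 and 6 h arrays were scanned on the same day but lay on different slides. The calls of both genes at 6 h against 0.5 h were lost when single arrays were left out, with an adjusted p of 0.0553 to 0.133 for Ddit4 and 0.0562 to 0.0996 for Lrat.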

How the results depend on the processing

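Against 917 genes higher, 2530 lower and 361 at an extreme at 6 h, centring on the median gave 2026 higher and 1460 lower (58.1% of calls higher, against 26.6%), quantile scaling 43.6% and no background subtraction 4964 lower (14.7% higher). Normexp gave 8 higher, 39 lower and 0 at an extreme (limma, 74 at an unadjusted p under 0.05). No filter on dim probes gave 1497 and 7528, and an adjusted p under 0.01 gave 271, 1052 and 71. The slide as a random block gave 2219, 4541 and 1145, with an estimated correlation within slides of -0.222. Only the 6 h arrays lay on more than 1 slide, so that fit cannot separate slide from time. Its larger counts are not a stronger result. Leaving out 1 array gave 486 to 1011 higher, 1591 to 2741 lower and 125 to 370 at an extreme.

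Directions turned for genes near 0 or dim ones. With median centring these were Atf3 (0.07), Gap43 (0.09) and Hspa8 (0.07), with quantile scaling Gap43 (0.01) and Hspa8 (0.07), with cyclic loess Gap43 (0.03) and Hspa8 (0.02), and without background subtraction Gap43 (0.07), Hspa8 (0.04) and Rel (-0.10). With normexp they were Egr4 (0.08), Flt1 (0.16), Olr1158 (0.19), Socs3 (0.21), Sox11 (0.01) and Sprr1al (0.01). Without 1 array, values ran from -0.29 to 0.2 for Atf3, -0.13 to 0.48 for Fos, -0.06 to 0.03 for Gap43 and -0.06 to 0.01 for Hspa8. The cause was not tested. Over 106 named genes and 25 fits, 2286 values kept direction and call, 337 lost the call and 1 gained it. Of the genes tested, 46 were called in every alternative.

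Replicate numbers did not pair the samples: deviations of same-numbered arrays correlated at 0.03, -0.11 and 0.12. The fit with the replicate number as a block called 680 genes higher, 2150 lower and 274 at an extreme. Scaling to spike-in probes was not run, since no E1A spike-in probe was well above background on all arrays. Dim probes limit the comparison, because fewer spots were well above background at 0.5 h.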
